A study of Homo sapiens with 12 samples.

Results

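The clustered protocadherins are cell-surface adhesion proteins of the cadherin superfamily whose genes lie in tandem on the long arm of chromosome 5 at 5q31. All protein-coding genes of chromosome 5 in the RefSeq annotation of GRCh38 whose symbol starts with PCDHA, PCDHB or PCDHG were taken, 53 of the 19821 placed protein-coding genes. They form 3 subclusters: 15 alpha genes (PCDHA), 16 beta genes (PCDHB) and 22 gamma genes (PCDHG). The whole cluster spans 726.8 kb (chr5:140786140-141512975), a density of 72.9 members per Mb. These stretches were set against the DNA that purified with nucleoli from H9 cells, an established human embryonic stem cell line, in a naive and a primed pluripotent state.

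The medium was RSeT for naive and mTeSR for primed cells, and neither state was treated. Each state gave 3 libraries of nucleolar DNA and 3 of whole-cell DNA, 12 PCR-free libraries in all, after isolation of nucleoli from crosslinked cells. The authors deposited 1 list of nucleolus-associated regions per state, to which the labels tie its 6 libraries, with positions on hg38 and no score. No value below therefore carries a replicate error, the states could not be tested against each other, and differences in depth or calling between the lists were not tested. The labels do not say whether the replicates were separate cultures, and the read depth behind the lists is unknown. All region limits within the cluster lie on a 10 kb grid, which is the resolution of every value.

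In each alpha and gamma gene a long first exon of its own, with its own promoter, codes for the extracellular, transmembrane and proximal cytoplasmic parts and is spliced to constant exons at the end of the subcluster. Beta genes consist of a single coding exon and share no constant exons. In neurons, single cells express different combinations of these genes, and the proteins take part in self-recognition and self-avoidance of neurites. The promoter choice depends on DNA methylation and on the architectural factors CTCF and cohesin, and most of the promoters carry a conserved sequence element with the core CGCT at which CTCF is known to bind. C-type genes (PCDHAC1, PCDHAC2, PCDHGC3, PCDHGC4 and PCDHGC5) lie closest to the constant exons and are less subject to random choice.

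The promoters show what the members share in sequence and where the subclusters differ. RefSeq promoter windows (GRCh38.p14, 250 bases before to 50 bases after a gene's start) were at hand for 47 of the 53 members, all on the plus strand, and not for PCDHA3, PCDHA13, PCDHB6, PCDHB11, PCDHGA12 and PCDHGC5. CGCT, searched on both strands, occurred in 46 of these 47 windows. It is a short motif that 81.0% of all 15812 promoter windows of coding genes hold, so its presence alone says little. The letters around it differed by subcluster. In the alpha windows below, 22 bases around the core are given, with CGCT in capitals.
PCDHA1: ccacatgatgtCGCTgtacacc
PCDHA5: ccacatgatgtCGCTggacacc
PCDHA10: ccaccggatgtCGCTgtcgtcc
PCDHA12: tcacatgatgtCGCTctacact

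The alpha form GATGTCGCT, searched on both strands like the other forms, was in 9 of 13 alpha windows, in none of the 34 beta and gamma windows and in 0.139% of all promoter windows. All 3 forms were spelled out after these sequences had been read, so their counts describe the members only. PCDHA1 and PCDHA5 had this stretch inside a naive region, PCDHA12 inside a primed region and PCDHA10 inside regions of both lists. The beta windows had a different stretch before the core.
PCDHB2: acgcggggtggCGCTgcagcct
PCDHB4: acgcagggtggCGCTgcaggct
PCDHB7: acgcaaggtggCGCTgctggct
PCDHB16: acgcgtggtggCGCTgcaggtt

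The beta form GGTGGCGCT was in 13 of 14 beta windows, all but that of PCDHB1, in no alpha or gamma window and in 0.658% of all windows. Among the beta genes shown, PCDHB2 lay in a primed region, PCDHB4 in neither list, PCDHB7 in a naive region and PCDHB16 in both. The gamma windows had another set of letters around the core.
PCDHGA1: actgtgggcgcCGCTgttcact
PCDHGA7: actcacagcgcCGCTgttcacc
PCDHGA8: actgtaagcgcCGCTgttcacc
PCDHGA9: actctgagcgcCGCTgttgatc
PCDHGC3: actctgtgtgcCGCTgtcggcc

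The gamma form GNCGCTGT, where N is any base, was in 17 of 20 gamma windows, in 5 of 13 alpha windows, in 1 of 14 beta windows (PCDHB3) and in 5.48% of all windows. It can overlap the alpha form, as it does in PCDHA1 and PCDHA10. PCDHGA1 and PCDHGC3 lay in primed regions, PCDHGA7 in neither list, PCDHGA8 in both and PCDHGA9 in a naive region. CGCT in its subcluster form was thus present in promoters of every class of coverage in the beta and gamma subclusters.

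Base composition set the C-type promoters apart from the others. The GC content of the 4 C-type windows was 59.0 to 66.0% (median 61.8%), against 32.3 to 51.3% (median 38.7%) in the other 43 windows. The C-type windows held 15 to 27 CpG dinucleotides and the others 2 to 16. The median over all coding genes was 62.7% GC and 22 CpG, so most clustered protocadherin promoters were poorer in GC than the typical promoter, and the C-type ones close to it.

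Across the whole cluster, regions of the naive list covered 38.1% of the bases (276.8 kb) and regions of the primed list 49.5% (360.0 kb), a naive minus primed difference of -11.4 percentage points. Over the 2913 Mb analysed these shares were 40.2% in the naive and 45.5% in the primed list. On chromosome 5 as a whole they were 34.3% and 29.6%, so that the sign of the difference was turned there (4.67 points). The cluster therefore lay near the genome's level in both lists, and its primed share was above that of its chromosome. In windows of 730 kb laid end to end along chromosome 5, the naive median was 32.9% (quartiles 26.03 and 41.4%) and the primed median 15.1% (2.74 and 53.4%). Both values of the cluster lie between these quartiles.

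**Figure D1:**
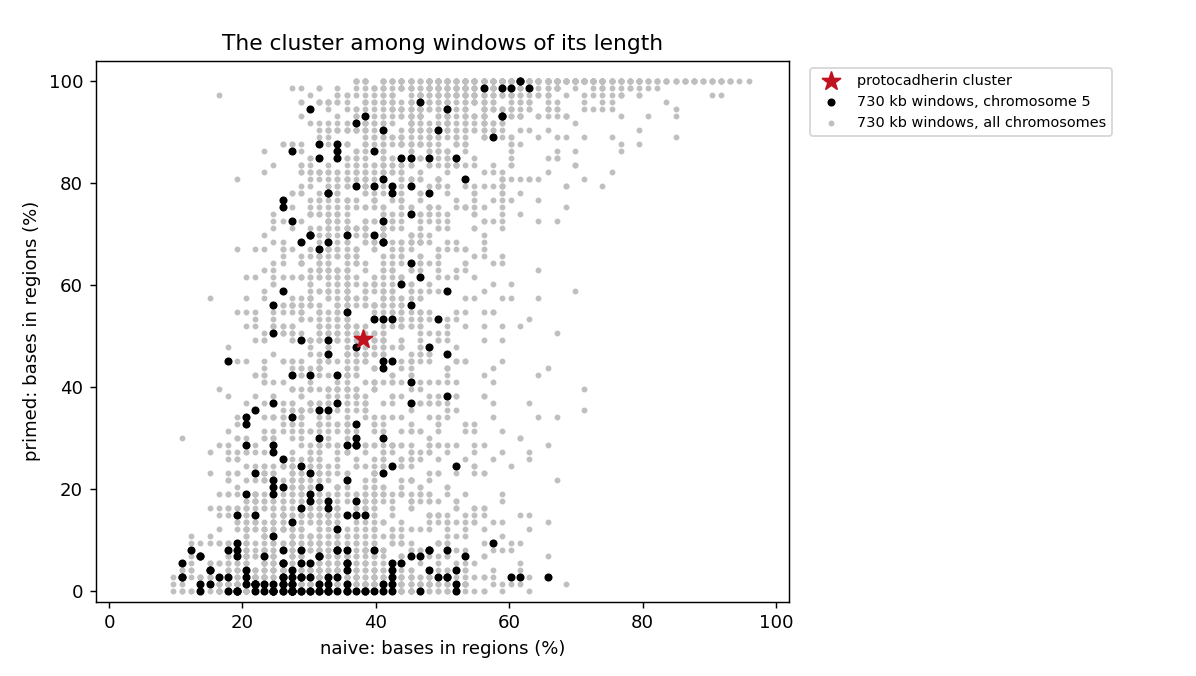
Each point is a window of 730 kb, with its share of bases in naive regions on the x axis and in primed regions on the y axis, both in percent; grey points are all chromosomes, black points chromosome 5 and the star the protocadherin cluster. The cluster, at 38.1% naive and 49.5% primed, lies within the cloud of windows and above most of those of chromosome 5 in primed share.

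The 500 kb on either side had a similar pattern, with more primed than naive sequence. The stretch before PCDHA1 was 35.2% naive and 48.8% primed, and the stretch after the gamma genes 21.4% naive and 46.0% primed. Of the 3 nearest coding genes before the cluster, ZMAT2 and the mitochondrial histidyl-tRNA synthetase gene HARS2 had 0% of their bodies in naive and 100% in primed regions. HARS1, the cytoplasmic synthetase, had 0% in naive and 7.84% in primed regions. After the cluster, the formin gene DIAPH1 had 33.6% in naive and 56.7% in primed regions, the histone deacetylase gene HDAC3 0% and 42.9%, and RELL2 0% and 73.8%. The higher primed share was thus found on both sides of the protocadherins and not only within them.

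**Figure D2:**
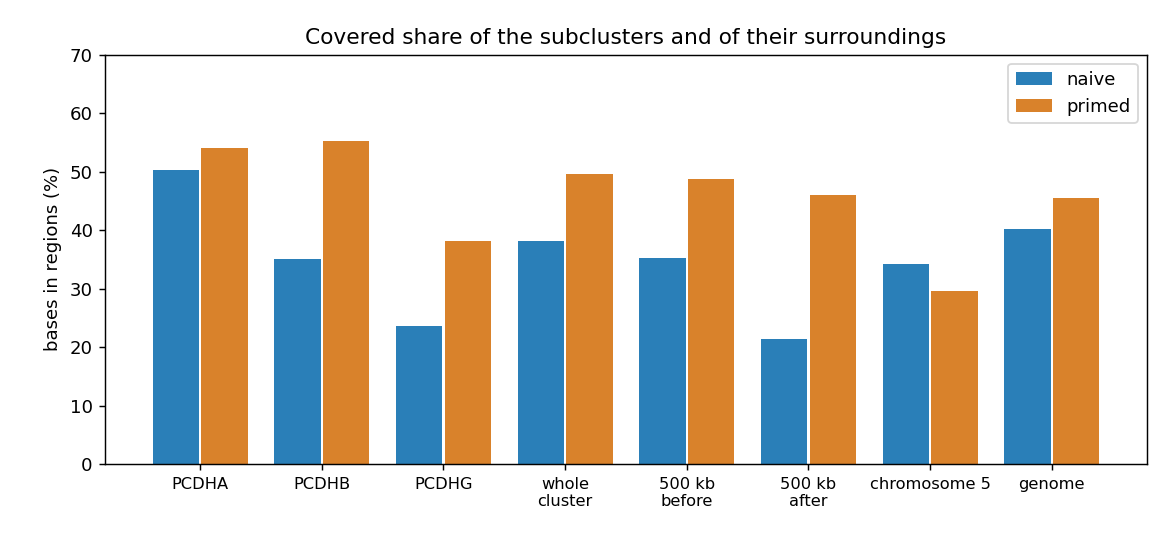
Bars give the percentage of bases inside regions of the naive list (blue, left) and of the primed list (orange, right) for the alpha, beta and gamma subclusters, the whole cluster, 500 kb on each side, chromosome 5 and the analysed genome; there are no replicates and no error bars. Over alpha, beta and gamma the naive share is 50.3, 35.0 and 23.6% and the primed share 54.1, 55.2 and 38.1%; with spans widened by 50 kb the naive shares are 49.0, 30.2 and 32.9%.

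The 16 naive regions that touch it had a mean length of 18.1 kb and a maximum of 50 kb, and the 15 primed regions a mean of 24.0 kb and a maximum of 70 kb. The medians here were 10 kb naive and 20 kb primed, against 10 kb genome-wide in both lists. Genome-wide the means were 19.0 kb in the naive and 44.2 kb in the primed list, and on chromosome 5 they were 16.7 kb and 29.5 kb. The primed regions here thus had a higher median and a lower mean than those of the genome. Single-bin regions made up 62.5% of the naive and 40.0% of the primed regions here, against 57.7% and 51.3% genome-wide. The longest primed region of chromosome 5 measured 2260 kb, against 70 kb for the longest in the cluster.

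Naive and primed regions coincided over 150.0 kb, which was 54.2% of the naive and 41.7% of the primed sequence in the cluster. A further 126.8 kb was naive only, 210.0 kb primed only and 240.0 kb in neither list. The shared sequence was 1.09 times the product of the 2 shares, a ratio that was 1.18 on chromosome 5 and 1.21 over the genome and had a median of 1.002 over windows of 730 kb (quartiles 0.927 and 1.11). Of the 74 bins of 10 kb that the cluster touches, 14 were naive only, 21 primed only, 15 in both and 24 in neither.

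**Figure D3:**
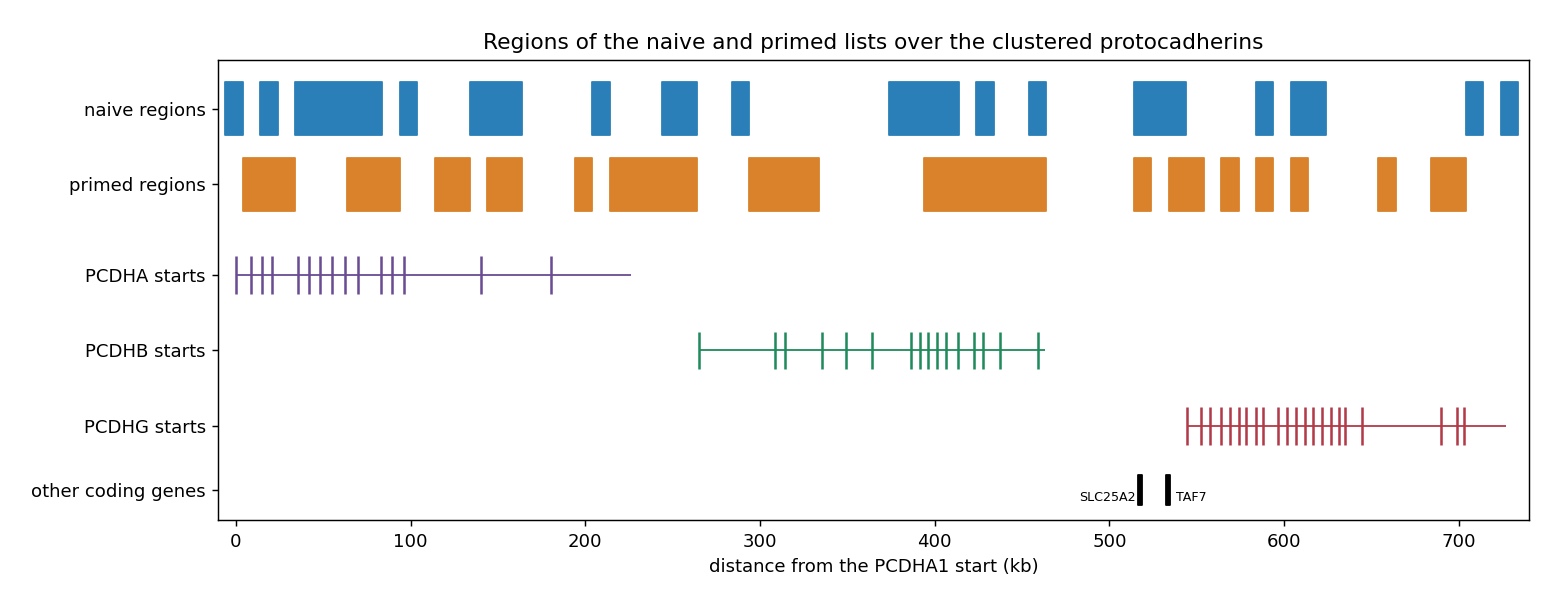
The x axis is the distance from the PCDHA1 start in kb; blue bars are the 16 naive and orange bars the 15 primed regions, ticks are the starts of the alpha, beta and gamma genes on lines that run to the end of each subcluster, and black bars are SLC25A2 and TAF7, the other coding genes inside. Blue and orange alternate over the alpha starts, the longest orange bar (70 kb) lies over the end of the beta genes, and the gamma starts have short bars and open gaps.

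The members were first counted by gene body, a member being called when any base of it lay in a region. By this measure 46 of 53 members lay in naive and 48 of 53 in primed regions, where 76.8% and 81.8% of all placed coding genes did. The classes were 45 members in both lists, 1 in naive only, 3 in primed only and 4 in neither, and the shares over all coding genes were 65.2%, 11.6%, 16.6% and 6.57%. All 37 alpha and gamma members were called in both lists. That count carries little, because their bodies run to a shared end and overlap each other, and most are long: among coding genes of 100 kb or more, 99.3% were called in naive and 85.9% in primed regions, and 85.4% in both. With at least 50% of the body required, 14 members remained called in naive and 20 in primed regions, and the background shares were 34.7% and 61.2%.

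Each member was therefore also given its own stretch, from its start to the start of the next member of the same subcluster, or to its end for the last. These stretches were 3.37 to 45.9 kb long with a median of 6.35 kb, mostly shorter than a bin. Those of PCDHAC2 and PCDHGC5, the last alpha and gamma genes, take in the constant exons of their subclusters. Of the 53, 36 had any base in naive (67.9%) and 39 in primed regions (73.6%), 28 of them in both, 8 in naive only, 11 in primed only and 6 in neither. A stretch includes sequence between genes: PCDHB1 and PCDHB6 were called by stretch but had no base of the body in either list. Counted by first base alone, 26 members (49.1%) lay in naive and 28 (52.8%) in primed regions. Neither measure was taken for other genes, so these counts have no background of their own. Of the bodies of coding genes under 10 kb, 54.3% were called in naive and 78.4% in primed regions, but the longest stretches exceed that length. The naive share was higher in 13 members, the primed share in 23, and they were equal in 17. The 53 starts fall in 38 bins, up to 3 starts in a bin, so neighbours are not independent of each other.

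**Figure D4:**
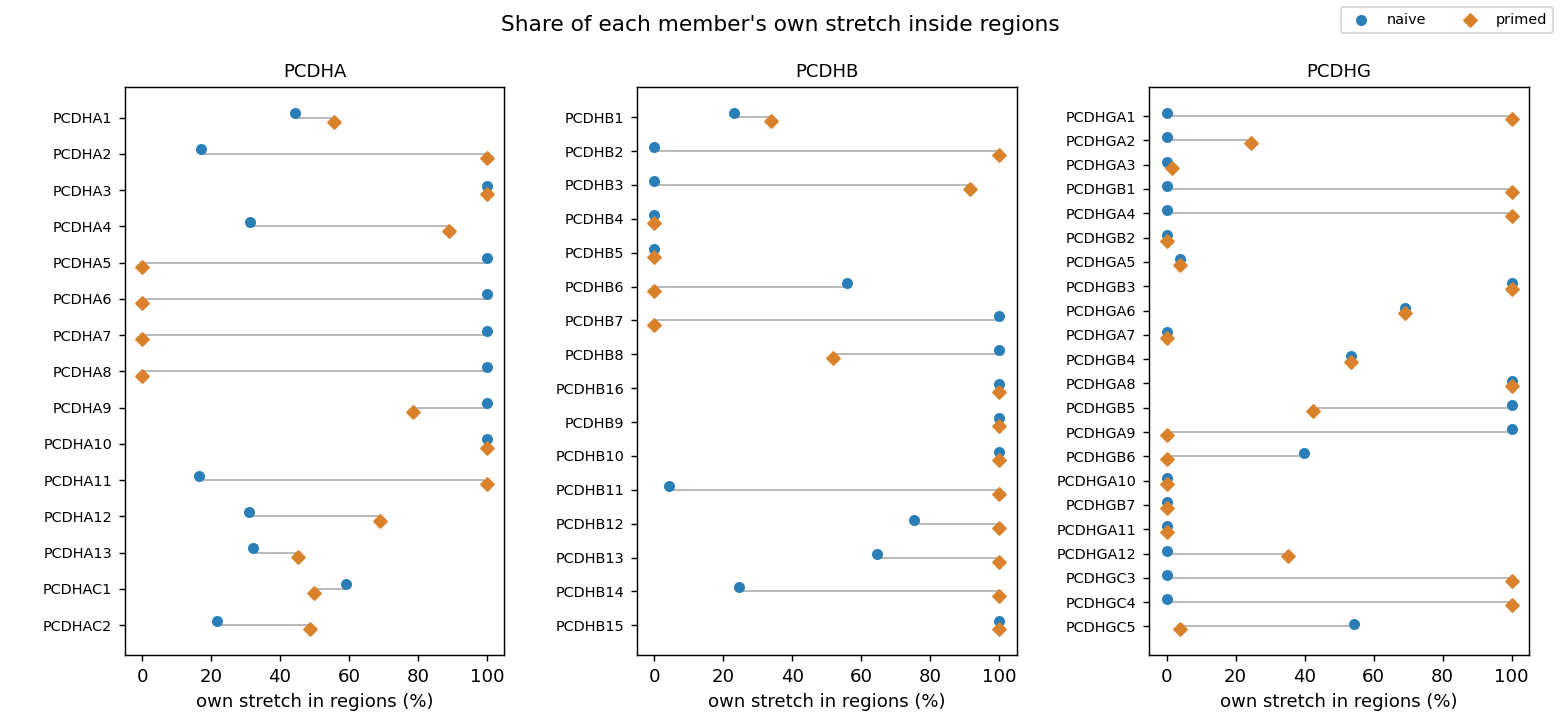
Each row is a member in map order, and the x axis is the percentage of its own stretch inside regions of the naive list (blue circles) and of the primed list (orange diamonds), joined by a grey line. PCDHA5 to PCDHA8 stand at 100% naive and 0% primed, PCDHA2, PCDHB2, PCDHB3, PCDHGA1, PCDHGC3 and PCDHGC4 lie far to the primed side, and PCDHGA7 and PCDHGA10 to PCDHGA11 stand at 0% in both.

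In the alpha subcluster (chr5:140786140-141012347, 226.2 kb) the lists covered 50.3% (naive) and 54.1% (primed), a difference of -3.75 points. It was -14.3 points with regions of at least 20 kb alone (35.4% naive, 49.7% primed), -9.20 with the span widened by 50 kb on both sides and 0 after merging regions up to 50 kb apart. The shared sequence, 50 kb, was 43.9% of the naive and 40.9% of the primed sequence and 0.812 times the product of the shares. Over windows of 230 kb the lower quartile of this ratio was 0.864 on all chromosomes and 0.627 on chromosome 5, so the alpha value lay between them. Over the run of 13 promoters before PCDHAC1 the shares were 57.2% naive and 57.1% primed, and the ratio was 0.656. No windows of that shorter length were drawn, so this ratio has no background of its own.

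The first bins alternated. The start of PCDHA1, the first alpha gene, lay in a single-bin naive region, that of PCDHA2 in a primed region of 30 kb, and PCDHA3 and PCDHA4 started where a single-bin naive region overlapped it. The longest naive region of the cluster, 50 kb (chr5:140820001-140870000), held the starts of 7 genes, PCDHA5 to PCDHA11. The own stretches of PCDHA5, PCDHA6, PCDHA7 and PCDHA8 were 100% in naive and 0% in primed regions, the largest differences of the subcluster. PCDHA9 had 100% of its stretch in naive and 78.5% in primed regions, and PCDHA10 had 100% in both. After it the naive region ended, and PCDHA11 had 16.4% in naive and 100% in primed regions.

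The C-type alpha genes and the constant exons followed another order. PCDHAC1 had 59.0% of its own stretch in naive and 49.8% in primed regions, and its start lay in a naive region only. PCDHAC2, the last alpha gene, had 21.8% in naive and 48.7% in primed regions, and its start lay in neither list. That stretch takes in the constant region, so the same bases are counted in both. Of PCDHAC2's stretch 10 kb was naive and 22.3 kb primed, and the constant region alone held 10 kb and 22.3 kb. The annotated constant region of the alpha genes (PCDHACT, chr5:140978949-141012344) was 29.9% naive and 66.9% primed, with no sequence in both. Between the alpha and beta genes, 39.0 kb were 51.2% naive and 96.5% primed.

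The promoter windows of PCDHA10, inside regions of both lists (chr5:140855647-140855946, plus strand), and of PCDHAC2, in neither (chr5:140966226-140966525, plus strand), are given because their stretches had the highest and the lowest summed coverage of the alpha members with a window. CGCT and its reverse complement AGCG are in capitals, here and in the pairs of the other subclusters.
PCDHA10: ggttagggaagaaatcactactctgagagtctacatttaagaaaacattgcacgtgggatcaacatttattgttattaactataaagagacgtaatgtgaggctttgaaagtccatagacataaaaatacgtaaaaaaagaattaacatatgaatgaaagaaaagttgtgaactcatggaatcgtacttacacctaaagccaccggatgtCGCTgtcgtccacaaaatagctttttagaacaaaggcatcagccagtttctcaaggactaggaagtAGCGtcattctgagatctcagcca
PCDHAC2: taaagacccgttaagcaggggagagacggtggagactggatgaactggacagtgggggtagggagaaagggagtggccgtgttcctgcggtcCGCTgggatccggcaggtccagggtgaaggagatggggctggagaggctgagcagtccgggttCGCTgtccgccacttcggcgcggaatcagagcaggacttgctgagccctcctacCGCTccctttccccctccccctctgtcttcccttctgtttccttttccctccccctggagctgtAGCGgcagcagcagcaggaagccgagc

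PCDHA10 holds the alpha form, and PCDHAC2 holds CGCT in 3 places, none of them in that form.

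Counted by promoter window, the alpha genes leaned to the naive list. Of 13 windows, 10 lay in naive and 5 in primed regions, where 42.3% and 66.2% of all promoter windows of coding genes did. The classes were 7 naive only, 2 primed only, 3 in both and 1 in neither, and the shares over all coding genes were 10.8%, 34.8%, 31.5% and 22.9%. Of the 7 windows in naive regions only, 5 belong to PCDHA5 to PCDHA9, which start within the 3 naive-only bins of 1 region, and the other 2 to PCDHA1 and PCDHAC1. The alpha count thus rests on few regions, and no test was possible.

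**Figure D5:**
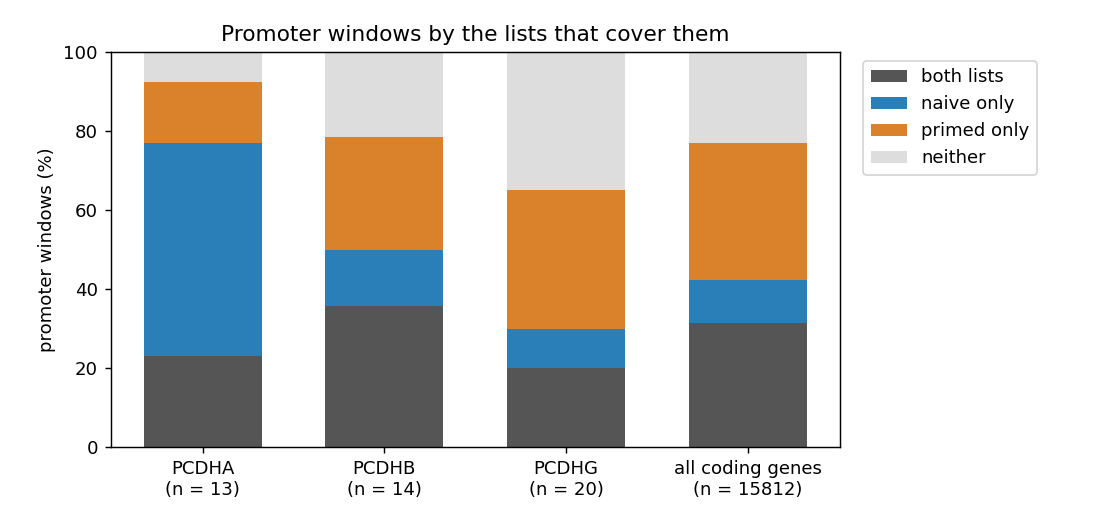
Stacked bars give the percentage of promoter windows covered by both lists (dark grey), by naive regions only (blue), by primed regions only (orange) and by neither (light grey), for 13 alpha, 14 beta and 20 gamma genes and for 15812 coding genes. The blue part is 53.8% of the alpha bar and 10.8% of the bar of all coding genes, and the light part is 35.0% of the gamma bar.

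The beta subcluster (chr5:141051374-141249365, 198.0 kb) was covered for 35.0% in the naive and 55.2% in the primed list, a difference of -20.2 points, which was -35.0 with regions of at least 20 kb alone and -10.1 after merging regions up to 50 kb apart. Beta bodies are 2.75 to 7.97 kb long and do not overlap, so each body can be counted. Of 16 beta genes, 9 lay in naive and 11 in primed regions, and the shares over coding genes under 10 kb were 54.3% and 78.4%. The classes were 8 in both, 1 naive only, 3 primed only and 4 in neither, where the background had 45.9%, 8.39%, 32.5% and 13.2%.

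The map order of the beta genes showed runs. PCDHB1, the first and the only beta member without the beta form in its window, had no base of its body in either list. PCDHB2 and PCDHB3 lay in a primed region of 40 kb (chr5:141080001-141120000) that shares no base with the naive list, each with 0% in naive and 100% in primed regions. PCDHB4, PCDHB5 and PCDHB6 were in neither list. PCDHB7 was the only beta body in naive regions alone, with 100% in naive and 0% in primed regions, and its neighbour PCDHB8 had 100% and 19.6%.

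The second part of the beta genes lay under the longest primed region of the cluster, 70 kb (chr5:141180001-141250000), which held the starts of 8 members from PCDHB16 to PCDHB15. PCDHB16, PCDHB9, PCDHB10, PCDHB13 and PCDHB15 had 100% of the body in both lists. PCDHB11 had 9.01% in naive and 100% in primed regions, and PCDHB12 66.7% in naive and 100% in primed regions. PCDHB14 was in primed regions only, with 0% in naive and 100% in primed regions. PCDHB15, the last beta gene, ended where both lists stopped, and the next 50 kb held no region.

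By promoter, 7 of 14 beta windows lay in naive (50%) and 9 in primed regions (64.3%), with 3 in neither (21.4%). These shares were near those of all coding genes, 42.3%, 66.2% and 22.9%. The pair below shows PCDHB16, inside both lists (chr5:141182137-141182436, plus strand), and PCDHB4, in neither (chr5:141121568-141121867, plus strand), chosen by the same rule.
PCDHB16: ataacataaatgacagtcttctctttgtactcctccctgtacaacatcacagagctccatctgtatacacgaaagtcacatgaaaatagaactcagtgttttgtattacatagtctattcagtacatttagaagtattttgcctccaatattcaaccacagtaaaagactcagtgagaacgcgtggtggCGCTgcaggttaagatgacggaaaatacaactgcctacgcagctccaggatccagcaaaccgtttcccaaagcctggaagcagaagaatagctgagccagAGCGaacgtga
PCDHB4: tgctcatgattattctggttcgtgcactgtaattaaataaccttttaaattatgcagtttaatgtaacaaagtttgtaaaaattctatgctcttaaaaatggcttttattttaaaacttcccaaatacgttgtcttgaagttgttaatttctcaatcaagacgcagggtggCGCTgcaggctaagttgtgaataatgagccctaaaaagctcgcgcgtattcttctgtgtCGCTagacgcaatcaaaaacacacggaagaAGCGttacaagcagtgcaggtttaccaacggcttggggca

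Both windows hold the beta form, so the 2 promoters carry the same 9 letters at the core and differ in coverage.

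The gamma subcluster (chr5:141330514-141512975, 182.5 kb) was covered for 23.6% in the naive and 38.1% in the primed list, a difference of -14.5 points. These were the lowest shares of the 3 subclusters as defined here, but the order depended on the setting. With spans widened by 50 kb the naive share was 32.9% in gamma and 30.2% in beta, and after merging regions up to 50 kb apart the primed share was 100% in gamma and 69.7% in beta. Of the gamma subcluster, 49.3% lay outside both lists, against 17.7% of the alpha and 29.6% of the beta subcluster and 36.4% of the genome. On chromosome 5 as a whole 48.1% did, near the gamma share, as did 44.6% of the 500 kb after the cluster. Its naive share was under the lower quartile of windows of 180 kb over all chromosomes (27.8%) and above that of chromosome 5 (22.2%). Most of its regions were single bins, 3 of 4 naive and 4 of 6 primed ones. With regions of at least 20 kb alone, the gamma shares were 10.96% naive and 16.2% primed, a difference of -5.20 points.

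Own stretches of gamma genes alternated along the map, and primed ones came both early and late. PCDHGA1, the first gamma gene, PCDHGB1 and PCDHGA4 each had 0% in naive and 100% in primed regions. Among these early genes, PCDHGA2, PCDHGA3 and PCDHGB2 had 0% in naive and only 24.5%, 1.56% and 0.168% in primed regions. PCDHGA5 had 3.96% in each list. In the middle, PCDHGB3 and PCDHGA8 had 100% in both lists and PCDHGA6 had 69.0% in both. PCDHGA9 was the only gamma member at 100% in naive and 0% in primed regions, and PCDHGB6 next to it had 39.9% and 0%. PCDHGA10, PCDHGB7 and PCDHGA11 had 0% in both lists, as had PCDHGA7 further up. PCDHGA12, which follows PCDHGA11, had 0% in naive and 35.1% in primed regions.

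The C-type gamma genes all started in the same primed region of 20 kb (chr5:141470001-141490000), so their calls are not independent of each other. PCDHGC3 and PCDHGC4 had 0% of the own stretch in naive and 100% in primed regions. PCDHGC5, the last member of the cluster, had 54.3% in naive and 3.85% in primed regions, with its start near the end of that primed region. Its stretch runs to the end of the subcluster and takes in the constant exons, so these shares are not those of its own exon alone. From PCDHGC3 to the end, 35.1% was in naive and 37.9% in primed regions with no shared base. The lists shared no base in the alpha constant region either, but these stretches are only 37.0 kb (gamma) and 33.4 kb (alpha) long. Even over windows of 180 kb, the lower quartile of the share in both lists was 0% on all chromosomes and on chromosome 5.

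By promoter, 6 of 20 gamma windows lay in naive (30.0%) and 11 in primed regions (55.0%), where 42.3% and 66.2% of all promoter windows did. Of the rest 7 were in neither list (35.0%, against 22.9% of all coding genes), those of PCDHGA3, PCDHGA5, PCDHGA7, PCDHGB4, PCDHGA10, PCDHGB7 and PCDHGA11. The gamma pair by the same rule, with ties settled by map order, is PCDHGB3, 97.0% inside both lists (chr5:141369992-141370291, plus strand), and PCDHGA7, in neither (chr5:141382492-141382791, plus strand).
PCDHGB3: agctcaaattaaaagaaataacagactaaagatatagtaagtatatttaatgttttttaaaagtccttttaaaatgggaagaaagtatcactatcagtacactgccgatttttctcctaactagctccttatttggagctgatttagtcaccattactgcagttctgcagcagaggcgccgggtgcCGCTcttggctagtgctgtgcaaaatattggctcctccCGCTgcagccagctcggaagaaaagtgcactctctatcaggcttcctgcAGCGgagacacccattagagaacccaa
PCDHGA7: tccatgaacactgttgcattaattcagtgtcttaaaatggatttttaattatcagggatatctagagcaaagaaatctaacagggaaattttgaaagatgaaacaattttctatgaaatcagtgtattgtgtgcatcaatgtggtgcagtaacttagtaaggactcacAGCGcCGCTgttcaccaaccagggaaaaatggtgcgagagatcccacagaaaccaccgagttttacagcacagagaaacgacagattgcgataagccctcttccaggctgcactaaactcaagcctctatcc

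PCDHGA7 holds the gamma form, and PCDHGB3 holds CGCT in 2 places, neither of them in that form. PCDHGA8 tied with PCDHGB3 and holds the form. PCDHGA10, PCDHGB7 and PCDHGA11 tied with PCDHGA7, and of these PCDHGA10 holds the form and the others do not. The pair therefore cannot show whether form and coverage are related.

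The stretch between the beta and gamma genes, 81.1 kb, was 37.8% naive and 26.1% primed, and it holds both coding genes inside the cluster that are not protocadherins. SLC25A2, an ornithine transporter gene of the mitochondrion without introns, had 100% of its body in both lists. TAF7, a subunit gene of the general transcription factor TFIID, had 100% in naive and 34.2% in primed regions. The region that holds them in the naive list was 30 kb long, and the 50 kb before it lay in neither list.

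Other cadherin genes gave a comparison outside the tandem array. Of 12 non-clustered protocadherin genes, 9 lay in naive and 6 in primed regions, where 76.8% and 81.8% of all coding genes did. Their median body share was 53.9% in naive and 1.08% in primed regions, against 28.9% and 37.9% for the clustered members. The largest differences were those of PCDH18 (92.0% naive, 0% primed), PCDH17 (59.7% and 0%), PCDH7 (60.9% and 2.35%) and PCDH9 (56.9% and 2.16%). PCDH7 and PCDH18 lie on chromosome 4 and PCDH9 and PCDH17 on chromosome 13. Chromosome was not adjusted for, so these medians do not separate gene family from chromosomal position. The naive share was higher in 7 of the 12 and the primed share in 2. Over all placed coding genes the medians were 35.6% naive and 75.8% primed. Bodies differ widely in length between these sets, and those of the clustered alpha and gamma members overlap, neither of which was adjusted for. The medians of the clustered members thus count the same bases repeatedly. By bases, the whole cluster was 38.1% naive and 49.5% primed.

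Of 9 large atypical cadherins, which include the FAT, Dachsous and CELSR proteins of planar cell polarity, all 9 lay in naive and 7 in primed regions. Their median body length was 138.9 kb, and of coding genes of 100 kb or more 99.3% lay in naive and 85.9% in primed regions, so these counts were near what such lengths give. FAT4 had 50.6% in naive and 0% in primed regions, DCHS2 34.6% and 0%, FAT3 41.7% and 8.93%, and CELSR1 51.0% and 100%. Of 19 classical and related cadherins all 19 lay in naive and 17 in primed regions, with a median body length of 157.9 kb, to which the same shares apply, and with median coverage of 49.998% and 55.0%. CDH19 had 77.7% in naive and 0% in primed regions, CDH10 74.7% and 6.33%, CDH9 55.7% and 0%, and CDH24 28.1% and 100%. Members of these lists differed in both directions. The naive share was higher in 5 of the 9 atypical cadherins and the primed share in 3, and in the 19 classical ones these were 9 and 10. FAT4 and DCHS2 lie on chromosome 4 and CDH9 and CDH10 on chromosome 5, and chromosome was not adjusted for.

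A further list held 14 genes for chromatin regulators with a known part in clustered protocadherin expression or in cohesin function. All 14 lay in naive and 13 in primed regions, where 76.8% and 81.8% of all coding genes did. The median body here was 76.4 kb. Among coding genes of 10 to 100 kb the shares were 81.4% and 82.3%, and among those of 100 kb or more 99.3% and 85.9%. Only RAD21, the kleisin subunit of cohesin, lay outside the primed list, with 51.2% in naive and 0% in primed regions. The de novo DNA methyltransferase gene DNMT3B had 37.5% in naive and 100% in primed regions, and the cohesin subunit gene STAG2 44.1% in naive and 93.4% in primed regions. CTCF itself had 73.9% in naive and 48.9% in primed regions. SMCHD1, a repressor of the cluster in mouse, had 30.2% in naive and 76.5% in primed regions. CTCF and SMCHD1 were named after their values had been seen.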

How the data were processed

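The deposited files hold, per the labels, 1 list of nucleolus-associated regions for each state of H9 cells, naive and primed, tied to 6 libraries each. A region is a chromosome, start and end. BWA, SAMtools 1.10, SICER and hg38 are named in the submitters' processing notes, and the sources used here do not give their roles, the calling settings or how 3 replicates became 1 list. Reads of near-identical protocadherin exons may be placed with less certainty than others, which was not tested.

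Genes came from RefSeq on GRCh38.p14, the assembly of hg38. Of its genes on 23 chromosomes, 679 with coordinates of other scaffolds were left out. Bases in regions were counted with Python 3.11.15, numpy 2.4.6 and pandas 2.3.3. Figures were drawn with matplotlib 3.10.9. The counting was tested on 200 simulated pairs of lists and was exact in 200. For genome shares, 14 stretches of at least 500 kb without a region or gene (117.4 Mb) were taken out. The members and gene lists were chosen with earlier results of these data known. Named members are the first, last and C-type ones, those in 1 list only and up to 4 per subcluster, with ties, by difference of the own stretch. Named genes of other lists are up to 4 by difference. The values of 1 gene that this rule names are not reported here. Differences are naive minus primed. With 1 list per state, values are descriptions without tests.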

Additional observations from a re-analysis of the deposited data

How the results depend on the processing

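Of 60 values recomputed under other settings, 46 stayed within 1.5 times (counts) or within the 95% binomial interval of the share over 10 kb bins, an interval that treats bins as independent, and no difference turned its sign, the alpha difference being 0 points after the 50 kb merge below. Merging regions up to 50 kb apart raised the cluster to 78.0% naive and 91.7% primed, the alpha genes to 100% in both, the beta genes to 59.6% naive, and the gamma genes to 56.2% naive and 100% primed (a difference of -43.8 points), since gaps in the cluster are mostly that short. The beta primed share was then 69.7%, below gamma, and with spans widened by 50 kb the naive share was higher in gamma (32.9%) than in beta (30.2%). Keeping only regions of at least 20 kb lowered the cluster's naive share to 26.1% and the gamma primed share to 16.2%. With those longer regions alone, members in naive regions fell from 46 to 35 of 53, and those in primed regions stayed at 48. Members in naive and primed regions fell to 14 and 20 of 53 when 50% of the body was required, where 34.7% and 61.2% of all coding genes remained. By promoter window, another measure, 23 (48.9%) and 25 (53.2%) of 47 were called, against 42.3% and 66.2% of all promoter windows. No paired analysis was possible because the replicates of a state entered 1 list, and for the same reason no replicate could be left out. Depth is unknown, so an uncovered bin may lie in neither list for want of reads.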

Other observations

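The cluster also holds protocadherin pseudogenes and noncoding genes. The pseudogenes PCDHA14 and PCDHB19P had 100% of their bodies in both lists, PCDHB18P and PCDHGB9P had 0% in naive and 100% in primed regions, and PCDHB17P and PCDHGB8P lay in neither. PCDHB1-AS1, a long noncoding RNA gene that overlaps PCDHB1 on the map, had 37.2% in naive and 11.9% in primed regions, while PCDHB1 itself had no base in either list.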
